A study of Mus musculus with 18 samples.

Results

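Circular RNAs of the mouse brain that were abundant in every Illumina library are described here. A circle was taken as core where it had 100 or more back-splice reads in each of the 9 CIRIquant tables, which were made from 9 Illumina libraries. The rule found 1689 core circles among 208914 circles listed in at least 1 library, or 0.808%, and among the 38297 circles that reached 5 reads in 3 or more libraries and were tested, or 4.41%. Members were chosen by their back-splice reads, so their levels and genotype differences in these reads are a description. No support is drawn from calls on them.

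The 3 groups were Adar2KO (Adar2-/- Gria2 R/R), Adar1-2KO (Adar1 E861A/E861A, Ifih-/-, Adar2-/-, Gria2 R/R) and wild type (WT), with 3 libraries each on Illumina. All mice were C57BL/6J males of 3 to 4 months, and whole brains were used. ADAR1 and ADAR2 are enzymes that convert adenosine to inosine in double-stranded RNA. The E861A allele lacks editing activity, Gria2 R/R is a glutamate receptor allele that carries the edited codon in the genome, and Ifih1 encodes the double-stranded RNA sensor MDA5. Both mutants shared the loss of ADAR2 and the Gria2 allele, and the labels name no Cre or transgene. Total RNA (5 ug) was digested with RNase R, which degrades linear RNA, and amplified as cDNA for 14 cycles. Of this cDNA, 5 ng went to Illumina libraries and 100 ng to Oxford Nanopore (ONT) libraries. The files used held 3 Adar2KO, 3 Adar1-2KO and 2 WT libraries on ONT. The labels do not say that replicates came from separate animals, so p-values measure the spread between these samples. In whole brain, fewer cells of a type and less RNA per cell cannot be told apart.

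A circular RNA forms when the spliceosome joins the end of an exon to the start of the same or an earlier exon, the back-splice. The product has no free ends, outlives linear RNA in many cells, and is more abundant in brain than in most tissues, where genes for synaptic proteins are frequent hosts. Long introns on both sides, complementary repeats in them and RNA-binding proteins are known to favour back-splicing, and ADAR1 is known to edit such repeats.

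The back-splice junction is the stretch that exists in the circle and not in the linear transcript. Junctions are shown for the most abundant core circles that could be placed on an annotated transcript, since these take the most reads. They are also shown for 5 core circles called between genotypes. Of the 5, Fbxo42 and Lrp1b were called on both platforms, Copa and Nalcn on ONT only and Zbtb20 on Illumina only. Each line gives the last 15 bases before the back-splice in lower case and the first 15 bases after it in capitals, 5′ to 3′ on the strand of the gene. Sequences and the coordinates in these lines are from GENCODE vM21 transcripts on GRCm38, while all other coordinates are those of the deposited tables on GRCm39.
Zfp609, minus strand, chr9:65794622-65795495: gtcaagtctgaaaagCAATGATGTTGTCCA
Gigyf2, plus strand, chr1:87364104-87380008: gaagaaaagatgtagGCTCCGTGCTCTGTC
Rims2, plus strand, chr15:39566943-39616510: aactcagccaaaccgGTGCTATGGATATAG
Hdgfl3, minus strand, chr7:81893799-81905636: aaagccggtgaagggATTGATGAACTCCCA
Zfp148, plus strand, chr16:33421321-33434974: gcactcaatgtccctGATAGAAGAGAAGAA
Kat6b, plus strand, chr14:21516626-21517498: catgagaaagaccagGTCTTGGTTTCCTAA
Anks1b, plus strand, chr10:90069468-90077142: ggaagccagagtgtaACAGAAAAGGGGAGT
Elf2, minus strand, chr3:51308050-51326035: agaattcagaaacagTAGTTCCAGAGAACC
Dtnb, plus strand, chr12:3617606-3648389: gagcattcctcttggTGAGGGCCGAGGCAA
Fbxo42, plus strand, chr4:141167713-141180532: gaccattggcctcagAGCTTCGAGTGTGTC
Lrp1b, minus strand, chr2:40725382-40751016: agacatgtggcagagATAAAAAGACTTGTG
Zbtb20, plus strand, chr16:43569681-43577748: ccgggtcatctgattATGCAGCCACTCTCT
Copa, plus strand, chr1:172097674-172099767: tctggcgtatgaatgGTCTAAGGAAGAAAA
Nalcn, minus strand, chr14:123369938-123371614: tacattgatcaaaaaCTAAAGCAAAGTGAA

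Illumina libraries held 1516772 (WT replicate 3) to 4308264 (Adar1-2KO replicate 3) back-splice reads, and ONT libraries 186594 to 673705 reads. Adar1-2KO replicate 3 stood apart. It listed 21736 circles against 54244 to 76743 in the other 8 Illumina libraries, and over core circles its levels correlated with the median of the other libraries at a Spearman rho of 0.710, against 0.894 to 0.948 for the others. Results that rest on it are given with and without it, beside the result or as counts of calls. Few defining markers of neurons were hosts: of 25 neuron marker genes 9 hosted a tested circle, and Syt1, a calcium sensor of vesicle release, hosted all 4 core circles of that list.

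Core circles took most of the back-splice reads of each brain. Their share was 58.5%, 58.5% and 59.0% in Adar2KO, 58.1%, 59.1% and 56.5% in Adar1-2KO and 59.2%, 59.9% and 60.3% in WT. The 9 libraries lay within a narrow band, with a mean of 58.8 ± 1.09% (SD, n = 9), and the lowest was Adar1-2KO replicate 3. On ONT, which the rule did not use, the same circles held 43.7% to 50.2% of the reads. Levels are given as CPM of back-splice reads after TMM scaling. Core circles ranged from 56.4 to 16742 CPM in the mean of 9 libraries, with a median of 177 CPM, against a median of 3.91 CPM in the 36608 other tested circles. The 10 highest held 12.7% and the 100 highest 39.5% of the core reads, and 106 core circles exceeded 1000 CPM.

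The Zfp609 circle (chr9:65701904-65702777), made of the single exon 2 of a zinc finger gene, ranked highest. It had 41446, 33550 and 54989 back-splice reads in Adar2KO, 40266, 40109 and 44133 in Adar1-2KO and 51469, 45754 and 25045 in WT. On the CPM scale the Zfp609 circle averaged 17365 ± 2049.9 in Adar2KO, 14285 ± 3922 in Adar1-2KO and 18577 ± 2658 in WT (SD, n = 3 each). The genotypes overlapped, and Adar1-2KO replicate 3 was the lowest library at 11396 CPM.

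Gigyf2, a translation repressor that binds the cap-binding protein 4EHP, hosted the next circle (chr1:87291826-87307730, exons 4 to 8). Its level was 12837, 11380 and 11995 CPM in Adar2KO, 13404, 14890 and 4761 CPM in Adar1-2KO and 11403, 11333 and 12256 CPM in WT. The other 8 libraries lay close together and Adar1-2KO replicate 3 was far below them. The Rims2 circle (chr15:39430339-39479906, exons 20 to 22), from a scaffold of the presynaptic active zone, had 8078, 6659 and 8414 CPM in Adar2KO, 7897, 9590 and 10266 CPM in Adar1-2KO and 7484, 6722 and 7773 CPM in WT. Adar1-2KO replicates 2 and 3 were the highest, and the groups overlapped.

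Kat6b, a histone acetyltransferase, and Rbm4, a splicing regulator, had the steadiest circles of all core members. Kat6b (chr14:21566694-21567566, exon 2) had 6191, 6260 and 6066 CPM in Adar2KO, 6586, 6517 and 6754 CPM in Adar1-2KO and 5948, 6304 and 6034 CPM in WT. Its Adar1-2KO libraries all lay above the others. Rbm4 (chr19:4842426-4844037) had 6299, 6247 and 6122 CPM in Adar2KO, 5511, 6168 and 5847 CPM in Adar1-2KO and 7078, 7064 and 7061 CPM in WT, with all WT libraries above both mutants. The remaining circles of the 10 highest came from Hdgfl3, a growth factor-related protein, Zfp148, a zinc finger transcription factor, Anks1b, a postsynaptic scaffold, Elf2, an ETS family transcription factor, and Dtnb, a dystrobrevin. Their means over 9 libraries were 7219 CPM for Hdgfl3, 6644 CPM for Zfp148, 6273 CPM for Anks1b, 5884 CPM for Elf2 and 5452 CPM for Dtnb.

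**Figure D1:**
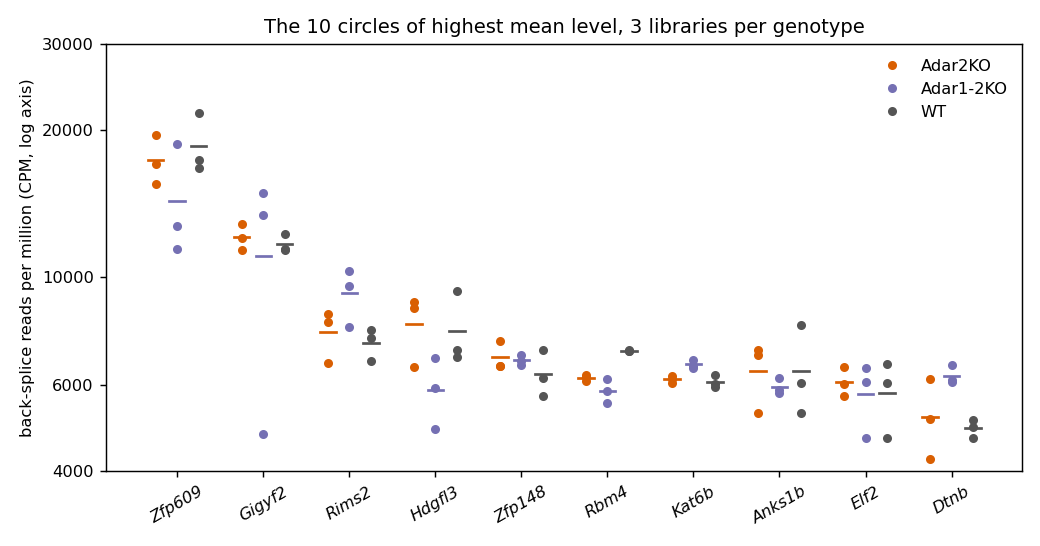
Back-splice CPM (log axis) of the 10 core circles with the highest mean, 1 point per Illumina library, with Adar2KO, Adar1-2KO and WT from left to right within each circle. Kat6b and Rbm4 show the tightest points, and the Gigyf2 point at 4761 CPM is Adar1-2KO replicate 3.

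The rule cut through a continuous range of levels. Circles just inside it, with a lowest count of 100, came from Spred1 (chr2:116983473-116995476), Dlg1 (chr16:31606900-31615828) and Atxn10 (chr15:85271192-85277707), and circles just outside, with a lowest count of 99, from Rnf111 (chr9:70376637-70383950), Ralgps2 (chr1:156728156-156735348) and Rasa2 (chr9:96464796-96493552). A lowest count from 100 to under 110 was found for 132 core circles and from 90 to under 100 for 172 others. For 1092 core circles the lowest count was in WT replicate 3, the library with the fewest back-splice reads, where 100 reads were worth 65.9 CPM before TMM scaling, against 23.2 CPM on the same scale in Adar1-2KO replicate 3. The rule thus asked for a higher level in WT replicate 3 than elsewhere.

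Some very abundant circles failed the rule through single tables, and they are named here after their values were seen. The Ankrd12 circle (chr17:66331071-66360086) had 22129, 27573 and 0 back-splice reads in Adar2KO, 0, 0 and 57373 in Adar1-2KO and 0, 0 and 0 in WT. On ONT the same Ankrd12 circle had 3345, 4915 and 4018 reads in Adar2KO, 3943, 3512 and 7255 in Adar1-2KO and 2106 and 1906 in WT replicates 2 and 3. It was thus listed by ONT in every library and by CIRIquant in 3 of 9. The Tlk1 circle (chr2:70600348-70617339) was listed at 0 in Adar1-2KO replicate 2 and at 1526 to 3805 reads in the other libraries, and had 116 to 435 ONT reads in all 8 libraries. In all, 705 circles outside the rule were at 0 in at least 1 CIRIquant table and listed in all 8 ONT libraries, and 26 of these lay above the median ONT level of core circles, 190.4 CPM.

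Core circles were spread over 1054 host genes, of the 7018 hosts of tested circles. Of these hosts 705 had 1 core circle, 349 had 2 or more and 29 had 5 or more. Rims2 had most, 10 of its 84 tested circles, followed by Anks1b (8 of 58), Rims1 (8 of 53) and Zranb1, a deubiquitinase gene (8 of 27). Dennd1b, a Rab exchange factor, had 7 of 35, and Tasp1, a protease, 7 of 35. Core circles of 1 host often shared a splice site, and 703 (41.6%) had the start or the end of another core circle, so their reads are not independent. At Rims2, 5 of the 10 ended at 39479906, with starts at 39398234, 39418461, 39418464, 39430339 and 39448986, and the circle starting at 39430339 was the dominant one.

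Host functions were counted with lists of genes by role, as the share of each list's tested circles that were core, beside 4.53% of all tested circles with 1 host. Hosts known from earlier work for abundant brain circles stood highest, with 86 of 696 circles (12.4%), and 33 of the 47 such hosts had a core circle. That list was made for abundance in brain, which the rule also asks for, so its rank is not a result. The other lists, here and below, were chosen with earlier results of these data known. Their shares and their order are thus descriptions too. Next came DNA-binding transcription factors with 85 of 1006 (8.45%), synaptic vesicle and active zone genes with 62 of 829 (7.48%) and postsynaptic density genes with 52 of 824 (6.31%). RNA-binding and translation regulators had 77 of 1328 (5.80%), GABA receptor and inhibitory synapse genes 7 of 123 (5.69%), ion channels 38 of 680 (5.59%), chromatin regulators 93 of 1758 (5.29%) and kinases and phosphatases 85 of 1755 (4.84%). Near the overall share were ubiquitin pathway genes with 79 of 1722 (4.59%), adhesion genes with 43 of 997 (4.31%) and cytoskeleton and small GTPase genes with 103 of 2432 (4.24%). Membrane trafficking genes had 52 of 1295 (4.02%). Counted by host, 35.1% of adhesion, 29.9% of membrane trafficking, 28.9% of ubiquitin pathway and 28.2% of cytoskeleton hosts had a core circle. Over these role lists the host share ran from 21.7% (GABA receptor and inhibitory synapse genes) to 41.8% (ion channels). Each exceeded the share over all hosts given above, so the order of lists depends on whether circles or hosts are counted. At least 1 list held the host of 787 core circles.

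Among synaptic hosts, the highest circle of Rims1, another active zone scaffold (chr1:22572480-22577704), averaged 4898 ± 939 CPM in Adar2KO, 4501 ± 1382 CPM in Adar1-2KO and 5932 ± 1409 CPM in WT (SD, n = 3 each). Dlgap1, a postsynaptic scaffold, averaged 1909 ± 163 CPM in Adar2KO, 1875 ± 314 CPM in Adar1-2KO and 1908 ± 122 CPM in WT. For Rims1 the replicates of the genotypes overlapped, and for Dlgap1 the means differed by less than each SD. Homer1, which links glutamate receptors to internal calcium stores, had a mean of 779 CPM over 9 libraries, and Unc79, an auxiliary subunit of the sodium leak channel, 1992 CPM. Chromatin and transcription hosts were Phf21a, a reader of unmethylated histone H3, at 5092 CPM, Crebrf, a regulator of CREB3 factors, at 3366 CPM and Cdyl, a chromodomain corepressor, at 3136 CPM. Setd3, a methyltransferase of actin, had 3153 CPM. Among kinases, Ptk2 (focal adhesion kinase) had 3020 CPM and Hipk3 2662 CPM.

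Marker lists of other brain cell types had shares of core circles that are based on few circles, beside the 4.53% of all tested circles with 1 host. Oligodendrocyte lineage genes had 3 of 73 tested circles (4.11%), with St18, a zinc finger factor, highest at 203 CPM, and astrocyte genes 3 of 97 (3.09%), with Bmpr1b, a BMP receptor, highest at 329 CPM. Microglia genes had 1 of 27 (3.70%) and endothelial and pericyte genes 0 of 15. Circles of the genes altered in these mice had 0 core members of 27 tested circles.

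Core circles were nearly all exonic. The deposited tables class 1653 (97.9%) as exon, 29 (1.72%) as intron and 7 as intergenic, against 88.9% exon and 7.87% intron among other tested circles. Spans on the genome had a median of 11178 bases, quartiles of 4043 and 23286 and a range of 152 to 195766, close to the median of 11736 in other tested circles. Among the shortest were single-exon circles of the Pabpn1 and Bcl2l2 locus (152 bases), Erc1 (161), Dapk1 (162) and Dgkb (196). Among the longest were those at the Cep112 locus (195766), Nfib (171041) and Atxn1 (161067), and 21 core circles spanned over 100 kb.

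The ONT tables give exons for 1568 core circles, from which a spliced length was taken. Its median was 607 bases, against 650 in other tested circles on ONT, so most of a span was intron that the circle lacks. Single-exon circles made up 9.95% of core circles against 5.24% of the others, circles of 2 to 5 exons 69.3% against 61.5%, and circles of 6 or more exons 20.8% against 33.3%. AG-GT splice sites flanked 98.9% of circles in both classes. By exon lengths, 1331 core circles (84.9%) and 19543 others (75.1%) could be placed on a GENCODE transcript of the same gene.

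Among placed circles, 504 core circles (37.9%) began at exon 2, the first exon with a splice acceptor, against 23.3% of the others. The start codon lay inside 277 of 1323 core circles on coding transcripts (20.9%) against 10.99%, and circles of coding sequence only made up 77.6% against 87.4%. Exon 1 was found in 1 core circle (0.075%), against 0.097% of the others, and the last exon in 0 core circles. Where several transcripts matched, a placement with neither the first nor the last exon was preferred, which lowers these counts. The intron before a core circle had a median length of 15871 bases against 7028 and the intron after it 13369 against 5502. Both exceeded 10 kb at 601 of 1330 core circles (45.2%) and at 19.9% of the others. Where circles did not start at exon 2, the intron before had a median of 11068 bases in core circles and 5553 in the others. These are shares of circles that overlap in their exons, and the classes differ in level by the rule, so they are descriptions. Zfp609 is an example, with introns of 31970 bases before and 63420 bases after its exon 2, and Kat6b another, with 16665 and 92255 bases around exon 2. Flanking repeats were not analysed here.

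**Figure D2:**
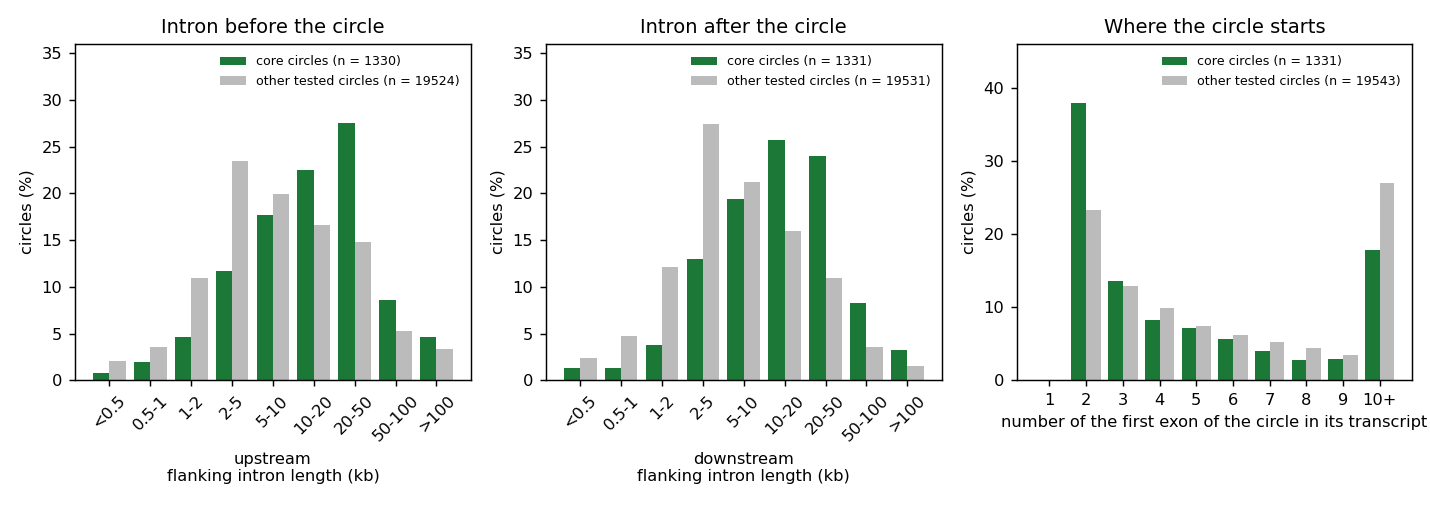
Shares of core circles (left bar of each pair) and of other tested circles (right bar) by length of the intron before the circle, length of the intron after it (both in kb, GRCm38) and number of the first exon of the circle. Core circles are shifted to long introns on both sides and to a start at exon 2, 37.9% against 23.3%.

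The junction ratio of the deposited tables is the share of reads at the circle's splice sites that are back-spliced, counting a back-splice read for both ends. Its median over libraries was 0.998 in core circles (n = 1689) and 0.762 in other circles listed in all 9 tables (n = 7742). It was 1 for 829 core circles, under 0.5 for 138 and under 0.1 for 13. Much of this rests on forward-splice reads listed at 0, which made up 7258 of 15201 core values (47.7%) and which switched on and off between libraries for 1148 circles. In 6387 of these values CIRI2, a second caller run on 8 of the libraries, gives a count, and it was never 0, with a median of 831 non-junction reads. With the 344 core circles above 0 in all 9 libraries the median ratio was 0.768, against 0.281 in 2231 other circles. With CIRI2 reads it was 0.634 in core circles against 0.197 in 8617 others, and 1113 core circles (65.9%) exceeded 0.5. Core circles thus had the higher ratio under each count, while the share close to 1 was seen with CIRIquant only. Back-splice reads enter both the ratio and the rule.

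The Zfp609 circle had a high ratio with both callers, slightly higher by CIRI2. It was 0.941, 0.938 and 0.947 in Adar2KO, 0.959, 0.937 and 0.911 in Adar1-2KO and 0.937, 0.933 and 0.943 in WT by CIRIquant, and 0.951 to 0.968 by CIRI2 in the 8 libraries it covers. Gigyf2 had 0, 0 and 0 forward-splice reads in Adar2KO, 0, 2382 and 2294 in Adar1-2KO and 0, 3090 and 0 in WT, while CIRI2 counted 1168 to 3358 non-junction reads in 8 of 8 libraries. Among the lowest ratios were those of a second Zfp148 circle (chr16:33254996-33288553, 0.02), Dpysl2 (0.022), Wdr82 (0.023) and a second Hdgfl3 circle (0.047). The second Zfp148 circle had 220, 21072 and 26957 forward-splice reads in Adar2KO, 30086, 19667 and 0 in Adar1-2KO and 33195, 19270 and 12742 in WT. Its CIRI2 ratio stayed between 0.040 and 0.060.

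Spread within a genotype was small for most core circles. The rule bears on this, since it left out any circle under 100 back-splice reads in a single library. The coefficient of variation (CV) of the CPM over 3 replicates, averaged over genotypes, had a median of 21.0% in core circles and 83.9% in other tested circles, whose counts are lower. By genotype the median was 15.5% in Adar2KO, 27.3% in Adar1-2KO and 15.6% in WT, and 11.2% in Adar1-2KO without replicate 3. Of the 1689 circles, 316 had a CV under 20% in all 3 genotypes and 350 a CV over 50% in at least 1. The CV was highest in Adar1-2KO for 1044 circles, in Adar2KO for 322 and in WT for 323. The lowest CVs were Kat6b (2.16%), Rbm4 (2.41%), Arhgap10, a GTPase-activating protein (4.17%), Grin2b, an NMDA receptor subunit (5.68%), and Unc13b, a vesicle priming factor (5.75%).

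**Figure D3:**
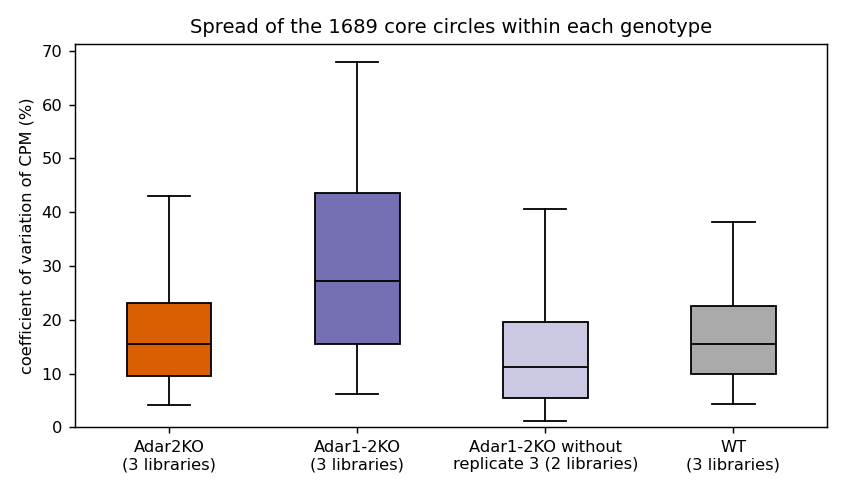
Coefficient of variation (%) of back-splice CPM over the replicates of each genotype for the 1689 core circles, as 1 box per genotype with its median and quartiles, and for Adar1-2KO also without replicate 3. The Adar1-2KO median of 27.3% is 11.2% without that library, against 15.5% in Adar2KO and 15.6% in WT.

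The highest CVs belonged to Pclo (91.5%), Eif4e (73.6%), Mbnl2 (67.8%), Spred1 (62.9%) and Dtna (61.9%). Pclo, a large active zone scaffold, had 329, 271 and 1399 back-splice reads in Adar2KO, 284, 264 and 3451 in Adar1-2KO and 2285, 2126 and 243 in WT. CIRI2 counted 2104, 1843 and 1899 junction reads for Pclo in Adar2KO, 1517 and 3962 in Adar1-2KO replicates 2 and 3 and 3427, 2917 and 1402 in WT. On ONT its level was 1285, 1590 and 1137 CPM in Adar2KO, 947, 1098 and 1200 CPM in Adar1-2KO and 1552 and 1270 CPM in WT. The libraries thus differed far more in the CIRIquant counts than in the other counts. Mbnl2, a splicing regulator, had 1040, 805 and 218 back-splice reads in Adar2KO by CIRIquant and 1041, 806 and 1193 by CIRI2, equal within a read in the first and second library. Over Adar2KO and WT, the CV of Pclo was 74.6% with CIRIquant and 16.8% with CIRI2, and that of Mbnl2 66.4% and 9.36%. CIRIquant gave at most 50% of the CIRI2 reads in 853 of 13512 core values (6.31%), which lay in 275 circles, and for 229 of these in some libraries only. A CV over 50% in these genotypes was found for 15 core circles with CIRIquant and for 1 with CIRI2.

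ONT listed 1568 of the core circles (92.8%) in at least 1 library and 1467 (86.9%) in all 8, against 71.1% and 8.05% of other tested circles. Another 101 were listed in 1 to 7 libraries and 121 in 0. Depth bears on these shares, since core circles have more reads. Among the 121, the highest was Ptk2 (chr15:73263608-73266593), with 8218, 4805 and 14935 back-splice reads in Adar2KO, 10967, 5814 and 9772 in Adar1-2KO and 6347, 5356 and 4331 in WT. Aff3 (1627 CPM) and Camta1 (1117 CPM), both transcriptional regulators, Tcf20, a transcriptional coregulator (1081 CPM), and Cacna1b, a calcium channel subunit (1051 CPM), followed. Other ONT circles used both ends of 27 of the 121 and 1 end of 65, and 4 had an ONT circle within 3 bases at both ends. Spans of the 121 had a median of 17339 bases, against 10868 in those listed in all 8.

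The most abundant Rims2 circle had 1386 ONT reads in WT replicate 2 and was not listed in the other 7 ONT libraries. The Phf21a circle (chr2:92044394-92061069) had 1392, 0 and 0 ONT reads in Adar2KO, 1078, 703 and 0 in Adar1-2KO and 0 and 586 in WT, while its back-splice level was 4666 to 5573 CPM in all 9 Illumina libraries. Such circles were listed at high counts in some ONT libraries and not at all in others of the same genotype, so a 0 on ONT is an entry not listed, which need not mean that the circle was absent. The Rims2 circle that starts at 39448986 was listed in all 8 ONT libraries.

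Levels on the platforms went together. Over 1536 core circles tested on ONT, mean ONT CPM and mean Illumina CPM correlated with a Spearman rho of 0.811, where both platforms read cDNA of the same preparation. The log2 ratio of ONT to Illumina had a median of 0.08, and 1361 circles (88.6%) lay within 2-fold of it. The ratio went with spliced length (rho 0.652). Its median was −0.62 for the 133 circles of up to 300 bases, −0.45 for 301 to 500, 0.14 for 501 to 700, 0.43 for 701 to 1000, 0.50 for 1001 to 1500 and 0.37 beyond 1500 bases. Short circles were thus lower on ONT than on Illumina. The highest ratio was that of Stk39, a kinase of ion transport (chr2:68189158-68240485, log2 3.35). Stk39 had 188 to 787 back-splice reads by CIRIquant, 1012 to 3794 junction reads by CIRI2 and 208 to 664 reads on ONT. The lowest was Ubl5, a ubiquitin-like splicing factor (log2 −4.79), with 6, 5 and 5 ONT reads in Adar2KO, no entry in Adar1-2KO and 2 reads in WT replicate 3 alone. Entries not listed counted as 0 in this ratio.

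**Figure D4:**
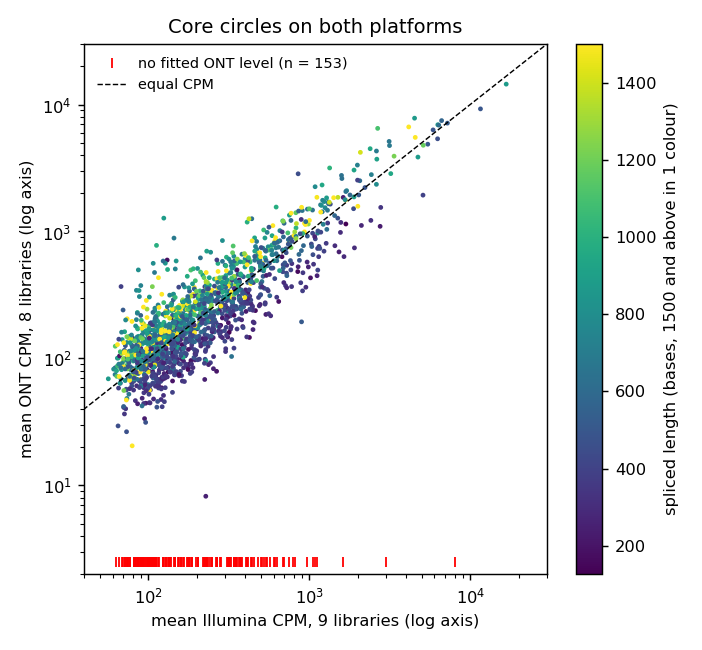
Mean ONT CPM against mean Illumina back-splice CPM (log axes) of the 1536 core circles tested on ONT, 1 point per circle coloured by spliced length, with a dashed line of equal CPM and red ticks at the bottom for core circles with no fitted ONT level. Points follow the line (rho 0.811), with short circles below it and long circles above it.

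Genotypes were compared on ONT first, because the rule used no ONT read. Tests were edgeR quasi-likelihood tests over all 10367 ONT circles with Benjamini-Hochberg adjustment at 0.05, and 1536 core circles were among these. In Adar2KO against WT, 1 core circle rose, that of Fbxo42, and it was the single call of the whole table (background 0.00965%). At an unadjusted p under 0.05 there were 104 core circles, beside 436 of all 10367 circles tested. DESeq2 called 10 core circles, beside 11 of all 10353 that it tested. It gave no adjusted p for 1072 core circles that its own filter dropped. Fbxo42 encodes an F-box protein that binds p53 for degradation. Its circle (chr4:140895024-140907843, exons 2 to 4) had 389, 327 and 448 ONT reads in Adar2KO, 37, 31 and 78 in Adar1-2KO and 16 and 15 in WT. Every Adar2KO library lay far above all others.

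The log2 fold change of Fbxo42 in Adar2KO against WT was 3.67 ± 0.30 (SE) on ONT, with an edgeR adjusted p of 0.00118. With WT replicate 2 or 3 left out, which leaves 1 WT library, it was 3.67 or 3.69 and did not pass. On Illumina the circle had 2703, 2653 and 2808 back-splice reads in Adar2KO, 768, 599 and 426 in Adar1-2KO and 730, 484 and 287 in WT. Again the Adar2KO libraries stood apart and the other genotypes overlapped. The log2 fold change there was 2.32 ± 0.31, and 2.22 to 2.40 with single libraries left out. It is a description, since these counts chose the members. The edgeR call on them was lost when any Adar2KO or WT library, or Adar1-2KO replicate 1, was left out.

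In Adar1-2KO against WT on ONT, edgeR called 0 core circles and 0 of all circles (background 0%). At an unadjusted p under 0.05 there were 213 core circles, beside 759 of all 10367 circles tested. DESeq2 called 26 core circles, beside 47 of all 10353 that it tested. The lowest p-values were those of Mllt10, a cofactor of the histone methyltransferase DOT1L, with a log2 fold change of 2.42 and an edgeR adjusted p of 0.148, and Lrp1b, a large LDL receptor-related protein, with 2.53 and 0.180. Both passed with DESeq2. WT had 2 ONT libraries, which limits both comparisons with it.

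In Adar1-2KO against Adar2KO on ONT, 33 core circles rose and 5 fell, 2.47% of those tested against a background of 0.473% (0.347% higher and 0.125% lower). At an unadjusted p under 0.05 there were 397 core circles, beside 1080 of all 10367 circles tested. DESeq2 called 116, beside 189 of all 10353 that it tested. With 1 library left out edgeR called 8 to 76, given here with the count over all circles in brackets. It called 76 (119) without Adar1-2KO replicate 3, 8 (8) without Adar2KO replicate 2 and 8 (11) without Adar2KO replicate 3. It called 11 (14) without Adar1-2KO replicate 1 and 13 (15) without Adar2KO replicate 1. Without WT replicate 2 or 3 it called 17 (19) or 17 (20). Core circles have more reads than the other circles tested, which bears on the share that passes. Their median log2 fold change was 0.03, against −0.21 over all circles tested.

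Among the circles that rose, Lrp1b (chr2:40615394-40641028, exons 67 to 71) had 262, 121 and 442 ONT reads in Adar1-2KO, 21, 15 and 35 in Adar2KO and 15 and 26 in WT. All Adar1-2KO libraries lay above all others, with a log2 fold change of 3.30 ± 0.37 over Adar2KO and an edgeR adjusted p of 0.00487. Illumina gave 2689, 1523 and 3697 back-splice reads in Adar1-2KO, 418, 270 and 473 in Adar2KO and 469, 301 and 187 in WT for Lrp1b. Its back-splice log2 fold change was 2.44 ± 0.26 over Adar2KO and 2.56 ± 0.26 over WT. The back-splice values belong to the counts that chose the members, and Adar1-2KO lay above the other genotypes in them as on ONT.

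Copa, a subunit of the COPI vesicle coat, had a circle of exons 7 and 8 (chr1:171925241-171927334) with 57, 32 and 81 ONT reads in Adar1-2KO, 5, 3 and 4 in Adar2KO and 6 and 10 in WT. Its ONT log2 fold change over Adar2KO was 3.60 ± 0.51 (edgeR adjusted p of 0.0143), and it was 3.42 to 3.87 and did not pass without Adar1-2KO replicate 1 or without any 1 of the Adar2KO libraries. On Illumina the Copa circle had 1385, 558 and 767 back-splice reads in Adar1-2KO, 644, 435 and 1224 in Adar2KO and 583, 478 and 257 in WT. The groups overlapped there, with a log2 difference of −0.01 between the mutants. Nalcn, the sodium leak channel, had a circle of exons 16 and 17 (chr14:123607350-123609026) with 401, 215 and 447 ONT reads in Adar1-2KO, 46, 57 and 57 in Adar2KO and 76 and 67 in WT. Its ONT log2 fold change was 2.60 ± 0.23 (edgeR adjusted p of 0.00166), beside 0.06 on Illumina, where reads were 3396, 2108 and 4489 in Adar1-2KO, 2375, 1423 and 4110 in Adar2KO and 1976, 1943 and 1254 in WT. The ONT groups of Nalcn did not overlap and its Illumina groups did.

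The Mllt10 circle (chr2:18127056-18131040, exons 6 to 8) had 86, 79 and 147 ONT reads in Adar1-2KO, 10, 13 and 14 in Adar2KO and 8 and 10 in WT, with a log2 fold change of 2.94 ± 0.34 over Adar2KO (edgeR adjusted p of 0.00487). On Illumina it was 0.82 and did not pass. Of the 33 circles that rose on ONT, 31 lay within 2-fold on Illumina, with a median log2 fold change of 0.23 there and a range of −0.58 to 2.44. The median spliced length of the 33 was 344 bases, and 27 were under 500 bases, against a median of 607 bases in core circles. Spliced length and platform thus moved with these calls, and their part in them was not tested.

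The 5 circles that fell were those of Fbxo42, with a log2 fold change of −3.18 ± 0.24 (edgeR adjusted p of 0.000515), Ptchd4 (−1.69), Sel1l3 (−1.56), Ppp1cb (−1.49) and Gpr137c (−1.39). Ppp1cb, a catalytic subunit of protein phosphatase 1, had 194, 127 and 320 ONT reads in Adar1-2KO, 424, 658 and 514 in Adar2KO and 263 and 160 in WT for its circle of exons 2 to 8. The mutants did not overlap. On Illumina 4 of the 5 lay within 2-fold, and Fbxo42 had a log2 fold change of −2.40 ± 0.31, which no longer passed without Adar1-2KO replicate 1 or any 1 of the Adar2KO libraries, at −2.50 to −2.32. With 1 library left out, Sel1l3 and Gpr137c passed only without Adar1-2KO replicate 3. Ptchd4 no longer passed without any 1 of the Adar2KO libraries, Adar1-2KO replicate 2 or either WT library, and Ppp1cb without any 1 of the Adar2KO libraries or Adar1-2KO replicate 1 or 2. Over these leave-outs the log2 fold changes of Ptchd4, Sel1l3, Ppp1cb and Gpr137c were −1.72 to −1.33.

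By host role, the calls of Adar1-2KO against Adar2KO on ONT are given beside 2.47% of all core circles tested and the background of 0.473%, and each list holds few calls. Synaptic vesicle and active zone hosts had 3 rises among 53 core circles tested, chromatin regulators 4 among 81, cytoskeleton and small GTPase genes 4 among 101, and kinases and phosphatases 3 rises and 1 fall among 77. Ion channels and membrane trafficking genes had 2 rises each among 35 and 50. Transcription factors had 1 rise among 71, RNA-binding and translation regulators 1 among 70, hosts known from earlier work 1 among 73, and ubiquitin pathway genes 1 rise and 1 fall among 75. Postsynaptic density genes had 0 calls among 49, adhesion genes 0 among 39, GABA receptor and inhibitory synapse genes 0 among 7 and the neuron marker Syt1 0 among its 4 circles.

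On Illumina the rule used the same counts and barred large falls in any library, so the counts of calls are given beside the background and nothing is read from them. In Adar2KO against WT 1 core circle was called (Fbxo42) with a background of 0.0209% (0.0157% higher and 0.00522% lower). With the replicate number as a block, since same-numbered libraries of these groups deviated together, 2 core circles and 8 of all 38297 circles were called. In Adar1-2KO against WT 2 were called (Lrp1b and Zbtb20), with a background of 0.0627% (0.0235% higher and 0.0392% lower), and in Adar1-2KO against Adar2KO 2 (Lrp1b and Fbxo42), with a background of 0.0209% (0.00522% higher and 0.0157% lower). Without Adar1-2KO replicate 3 the calls were 3, 4 and 4 in the order given, beside 20, 46 and 28 of all 37464 circles. On ONT, which the rule did not use, 94.0%, 86.3% and 82.5% of the core circles tested lay within 2-fold in these comparisons, which share libraries. The share over all ONT circles is not given, so these values do not set core circles apart. They include Adar1-2KO replicate 3. The flow cells differed between groups. The 3 WT libraries, Adar1-2KO replicate 2 and most of Adar2KO replicate 3 came from 1 flow cell. Adar2KO replicates 1 and 2 came mainly from another. Adar1-2KO replicate 3, the library that stood apart, came from flow cells that it shared with no other library known (81.8% and 18.2%). That of Adar1-2KO replicate 1 is not known here. A fit of the libraries from the flow cell of the WT libraries was made. It holds 1 library of each mutant, so the 3 WT libraries alone give its spread. The log2 fold changes there were 2.17 for Fbxo42 in Adar2KO against WT, 2.34 for Lrp1b and 1.56 for Zbtb20 in Adar1-2KO against WT, and 2.10 for Lrp1b and −1.82 for Fbxo42 in Adar1-2KO against Adar2KO.

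Zbtb20, a zinc finger transcription factor of the hippocampus, had a circle of exons 10 to 13 (chr16:43390044-43398111) with 4801, 3471 and 4868 back-splice reads in Adar1-2KO, 1720, 1126 and 2170 in Adar2KO and 1764, 1172 and 778 in WT. All Adar1-2KO libraries were above the others, and the log2 fold change over WT was 1.40 ± 0.20. This is a description, since the same counts chose the members. The log2 fold change was 1.32 to 1.45 and did not pass without Adar1-2KO replicate 1 or 2 or without any 1 of the WT libraries. Over Adar2KO it was 1.14 and did not pass. On ONT Zbtb20 was listed at 168 reads in Adar2KO replicate 2, at 75 and 84 in WT and at 0 in the other 5 libraries.

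Other large back-splice differences did not pass with all 9 libraries and are given as values. These counts chose the members, so passes with a library left out are a description as well. Gabra2, a GABA-A receptor subunit (chr5:71163450-71192140), had 766, 585 and 945 back-splice reads in Adar2KO, 1137, 572 and 1187 in Adar1-2KO and 299, 223 and 137 in WT. On ONT the Gabra2 circle had 60, 61 and 82 reads in Adar2KO, 97, 63 and 223 in Adar1-2KO and 14 and 17 in WT. Every library of both mutants lay above every WT library on both platforms. The back-splice log2 fold changes were 1.63 ± 0.28 in Adar2KO and 1.65 ± 0.28 in Adar1-2KO against WT. Without Adar1-2KO replicate 3 the Gabra2 fold changes were 1.61 and 1.67, and both passed. Tjp1, a tight junction scaffold (chr7:64976010-64986894), averaged 171 ± 21.1 CPM in Adar1-2KO, 478 ± 31.8 CPM in Adar2KO and 402 ± 41.6 CPM in WT (SD, n = 3 each), with no overlap between Adar1-2KO and the others. Without Adar1-2KO replicate 3 the Tjp1 log2 fold change in Adar1-2KO against Adar2KO was −1.54 and passed. Reps1, an endocytosis protein (chr10:17965196-17972084), had 171, 211 and 210.4 CPM in Adar2KO, 799, 161 and 1369 CPM in Adar1-2KO and 848, 881 and 956 CPM in WT. Of the Adar1-2KO libraries, replicate 2 lay just below Adar2KO, replicate 1 between Adar2KO and WT and replicate 3 above WT. Without Adar1-2KO replicate 2, Reps1 passed in Adar2KO against WT (log2 fold change −2.18) and in Adar1-2KO against Adar2KO (2.46). Its ONT reads were 344, 523 and 404 in Adar2KO, 570, 465 and 804 in Adar1-2KO and 200 and 233 in WT. All circles together had 364380, 447592 and 425390 ONT reads in Adar2KO and 205273 and 186594 in WT. Relative to these depths the Reps1 reads of Adar2KO and WT overlapped, and the fall seen on Illumina was not seen on ONT.

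Circle length went with the genotype differences on both platforms. In Adar1-2KO against WT the median log2 fold change of core circles on ONT was 0.62 up to 300 bases, 0.35 for 301 to 500, 0.20 for 501 to 700, 0.00 for 701 to 1000, −0.31 for 1001 to 1500 and −0.69 beyond. Illumina gave 0.46, 0.20, 0.03, −0.06, −0.31 and −0.62 for the same classes. Without Adar1-2KO replicate 3 the ends of this series were 0.61 and −0.46 on ONT and 0.45 and −0.58 on Illumina. In Adar2KO against WT the same classes had medians of 0.20, 0.055, 0.10, 0.032, −0.043 and −0.05 on ONT and 0.35, 0.12, 0.035, −0.045, −0.12 and −0.21 on Illumina. Against WT the medians were thus highest in the shortest class and lowest in the longest for both mutants, with a small span for Adar2KO on ONT. Adar1-2KO against Adar2KO had medians of 0.43, 0.25, 0.15, −0.020, −0.31 and −0.67 on ONT. Illumina gave 0.027, 0.040, 0.048, −0.0073, −0.18 and −0.415 there, so short circles rose on ONT and hardly on Illumina. Without Adar1-2KO replicate 3 the ends were 0.36 and −0.46 on ONT and 0.078 and −0.31 on Illumina. These series share libraries, and whether the differences come from the brains or from the libraries was not tested.

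Per library, the read-weighted mean spliced length on Illumina was 719, 771 and 697 bases in Adar2KO, 692, 699 and 672 bases in Adar1-2KO and 755, 817 and 733 bases in WT. On ONT it was 791, 914 and 812 bases in Adar2KO, 763, 796 and 710 bases in Adar1-2KO and 870 and 840 bases in WT. The Adar1-2KO libraries lay below all WT libraries on both platforms, and Adar2KO overlapped WT on both.

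**Figure D5:**
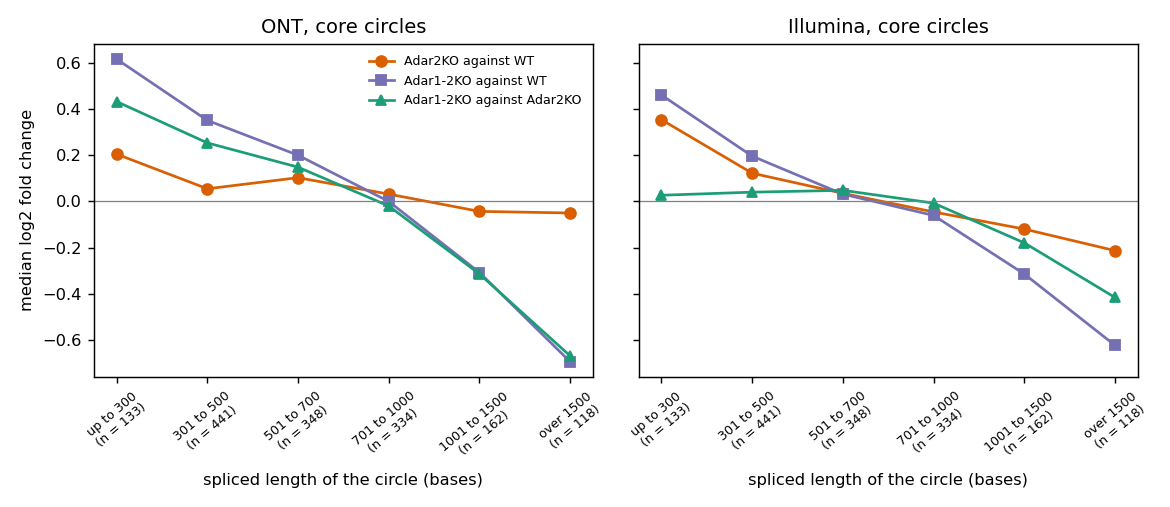
Median log2 fold change of core circles by class of spliced length (bases, number of circles under each class), on ONT and on Illumina, for the 3 comparisons of genotypes. In Adar1-2KO against WT the medians fall from 0.62 to −0.69 on ONT with length, and the slope is shallower in Adar2KO against WT.

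Forward-splice reads at the sites of core circles, which were not in the rule, could be tested for 1070 core circles of 6834 circles. edgeR called 0 core circles in each comparison (background 0%). At an unadjusted p under 0.05 there were 57 in Adar2KO against WT, 49 in Adar1-2KO against WT and 66 in Adar1-2KO against Adar2KO. Over all 6834 circles there were 276, 264 and 309 in the same order. DESeq2 called 87, 48 and 72 core circles, beside 329, 220 and 301 of all 6041 circles that it tested. The values listed at 0 bear on these counts. The circular share, back-splice over forward-splice reads, was tested with limma for all 1689 core circles among 6353. It called Zfp644, a zinc finger protein, in Adar2KO against WT (background 0.0787%, with 0.063% higher and 0.0157% lower). It called Grid1, a delta glutamate receptor, and Tdrd3, a topoisomerase partner, in Adar1-2KO against WT (background 0.0944%, with 0.0157% higher and 0.0787% lower), and Zfp644, Grid1 and Tdrd3 in Adar1-2KO against Adar2KO (background 0.189%, with 0.0157% higher and 0.173% lower). Without Adar1-2KO replicate 3 the circular share calls were 9, 15 and 14 in the same order, beside 20, 35 and 34 of all 6620 circles.

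Each of the calls named rested on forward-splice reads listed at 0. Tdrd3 had 241, 248 and 790 in Adar1-2KO, 0, 0 and 0 in Adar2KO and 0, 0 and 0 in WT, while CIRI2 counted 165 and 588 non-junction reads in Adar1-2KO replicates 2 and 3, 323, 248 and 356 in Adar2KO and 475, 349 and 198 in WT. CIRI2 thus listed non-junction reads of Tdrd3 in each of its 8 libraries, and the genotypes overlapped. With CIRI2 reads limma called 0 core circles in each comparison, beside 0, 1 and 1 of all 10304 circles. The median CIRI2 ratio of core circles was 0.654, 0.622 and 0.647 in Adar2KO, 0.650 and 0.649 in Adar1-2KO replicates 2 and 3 and 0.624, 0.581 and 0.629 in WT. Both Adar1-2KO libraries lay above all WT libraries, and Adar2KO overlapped WT.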

How the data were processed

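Brains of 3 genotypes were read on Illumina and ONT after RNase R. Per the submitters' processing notes, the tools were bcl2fastq, BWA 0.7.17 and DESeq2 2.11.40.8 with GRCm39 (mm39), and the CIRIquant version was 1.1.2, per the file headers. In the deposited files, CIRIquant gives counts of back-splice and forward-splice reads, a junction ratio as a fraction, and a CPM of mapped reads. The deposited CIRI2 and ONT tables give counts from 2 upward, for 8 libraries each, and the ONT caller is not given in the sources used here. In the Adar1-2KO CIRIquant tables the values stand 1 column right of their headers. The authors' comparison tables were not used.

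A circle is a chromosome, start and end. No step that marks strand is named in the labels, so hosts that overlap are uncertain, and 12 core circles kept several names. Circles that reached 5 reads in 3 or more libraries were fitted with edgeR 4.0.16 (TMM, all libraries of a platform, two-sided quasi-likelihood test, R 4.3.3). The circular share was fitted with limma 3.58.1 (pseudocount 0.5, at least 20 reads in every library), and ± beside a log2 fold change is its SE. DESeq2 1.42.0, other filters, pseudocounts, thresholds and rules, a replicate block, only the groups compared, and each library left out were alternatives. Fits by flow cell, on CIRI2 reads and without 0 values were added after seeing the data. Same-numbered Adar2KO and WT libraries deviated together over core back-splice counts, with correlations of 0.154, 0.210 and 0.199, and other pairings did not reach 0.1 in every pair. The pairing comes from the data, not the labels.

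Exons are those of the first isoform in the ONT library with most reads, placed on GENCODE vM21 transcripts by exon lengths, 20874 of 27581 circles. Flanking introns are those of GRCm38. Named circles followed a rule. They were the 10 highest by CPM, the 5 highest and lowest by junction ratio, span, CV and platform ratio, the up to 5 largest changes that passed or else the 3 of lowest p, the largest back-splice changes, members missing on ONT, 3 on each side of the threshold, hosts with most core circles and up to 4 circles per list, of which the text gives those that the results turn on. Members and lists were chosen with earlier results of these data known. Some circles that the rule names are not reported here.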

Additional observations from a re-analysis of the deposited data

How the results depend on the processing

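A rule of 50 or more reads gave 2747 circles (median junction ratio 0.972, median CV 23.7%, 2259 in all ONT libraries, 65.5% of reads), and 200 or more gave 945 (CV 18.4%, 848, 50.7%). Without Adar1-2KO replicate 3 in the rule, CV was 22.4% and the read share 60.8%. A rule on CIRI2 reads gave a median span of 12691 bases, CV 23.3% and 62.9%. CV was 26.2% on the deposited CPM and 15.2% without Adar1-2KO replicate 3, and the junction ratio 0.793 over values above 0 forward-splice reads.

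Counts of core calls are given for Adar2KO against WT, Adar1-2KO against WT and Adar1-2KO against Adar2KO, in that order. Calls over all circles of the same fit stand in brackets. On ONT core calls were 10, 26 and 116 with DESeq2 (11, 47 and 189 of 10353). With no filter they were 15, 32 and 69 (83, 115 and 197 of 166212). The last was 23 with a replicate block (28 of 10367) and 18 with only those groups (20 of 9758). Leaving out 1 library gave 0 to 1, 0 to 1 and 8 to 76 (0 to 1, 0 to 2 and 8 to 119). Forward-splice calls were 87, 48 and 72 with DESeq2 (329, 220 and 301 of 6041). With 1 library left out they were 0 to 1, 0 and 0 to 1 (0 to 2, 0 and 0 to 3). Back-splice calls were 20, 51 and 38 with no filter (95, 434 and 372 of 208914) and 4, 1 and 1 with only those groups (19, 9 and 4). They were 0 and 1 in the first and last with at least 10 reads (4 and 4 of 23989). In the first and second they were 2 and 6 with a replicate block (8 and 20 of 38297). In the second and last they were 5 and 4 at an adjusted p under 0.1 (33 and 20 of 38297). Leaving out 1 library gave 0 to 3, 1 to 4 and 1 to 4 (4 to 20, 8 to 46 and 3 to 28).

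Circular share calls, with those over all circles again in brackets, were 14, 5 and 13 with only those groups (33, 10 and 26). They were 0, 0 and 0 with a replicate block (0, 0 and 0) and with forward-splice reads above 0 throughout (0, 0 and 0). With CIRI2 reads they were 0, 0 and 0 (0, 1 and 1 of 10304). In the first and second they were 0 and 1 with a pseudocount of 1 (3 and 4 of 6353) and with no filter (3 and 6 of 9457). In the first they were 3 at an adjusted p under 0.1 (8 of 6353) and 3 with at least 50 reads (6 of 4502). Leaving out 1 library gave 1 to 9, 1 to 32 and 3 to 35 (4 to 20, 4 to 69 and 12 to 81).

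Directions reversed with CIRI2 reads for Myo9a (forward-splice log2 fold change −0.12 against WT in Adar2KO, −0.091 in Adar1-2KO), Tdrd3 (−0.16 against WT, −0.046 against Adar2KO) and Zfp536 (−0.61), and for the circular share of Zfp644 (−0.28 in Adar2KO) and Grid1 (1.78 against WT, 0.87 against Adar2KO). Reps1 reversed in 1 flow cell (−0.37), which sets 1 Adar1-2KO library, the one with low Reps1 reads, against 1 Adar2KO library. Of the alternatives for named circles, 811 kept call and direction, 105 lost the call, 48 gained it and 9 reversed. The cause was not tested. The replicate block changed calls as given, and same numbers pair only Adar2KO and WT on Illumina. ONT depth limits circles of few reads, and WT has 2 libraries there.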
